A study of Mus musculus with 14 samples.

Results

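The genes of the mitochondrial respiratory chain were examined on 14 Affymetrix mouse arrays of sorted bone marrow cells. A member was any probe set, the unit of measurement on such an array, whose single gene symbol starts with Nduf, Sdha, Sdhb, Sdhc, Sdhd, Uqcr, Cox4 to Cox8 or Atp5, without the Ndufaf assembly factors and pseudogenes. The rule used names alone and no measured value. It took 154 of 22626 probe sets, which stand for 82 of 12393 genes: 34 of complex I, 4 of complex II, 8 of complex III, 16 of complex IV and 17 of complex V, the ATP synthase. The other 3 are the assembly factors Sdhaf1, Sdhaf2 and Sdhaf4, which the prefix Sdha also takes and which were summarised apart from complex II. Each gene was read at its brightest probe set, the one with the greatest average over all arrays, and all 82 symbols were found in the RefSeq gene table of GRCm38.p6. No filter on low values was applied, so every member was tested.

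The cells were sorted for the surface protein Sca1 and against the receptor cKit, and came from mice that carried a BPLER instigating tumour (Instigator, n = 5 arrays), a PC3 non-instigating tumour (Non-instigator, n = 5) or a control of Matrigel, a basement membrane gel (Matrigel, n = 4). BPLER is a line of transformed human mammary epithelial cells and PC3 a human prostate cancer line. Instigating tumours are known for making quiet tumour cells elsewhere in the body grow, and the tumours compared were of matched size. The labels do not give the strain, age or genotype of the host mice. Each tumour type comes from a single cell line, so tumour class and cell line cannot be told apart, and nothing says whether each array is a separate animal. The p-values therefore measure the spread between these arrays, which may be technical. Of the genes behind the sort, Ly6a (Sca1) was not analysed here, since none of the probe sets used carries its symbol alone. Kit averaged 7.58 ± 0.22 (SD, n = 5) on the log2 scale on the Instigator arrays, 7.37 ± 0.45 (SD, n = 5) on the Non-instigator arrays and 7.52 ± 0.37 (SD, n = 4) on the Matrigel arrays.

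The respiratory chain sits in the inner mitochondrial membrane. Complexes I and II pass electrons from NADH and succinate to ubiquinone, complex III passes them on to cytochrome c, and complex IV, cytochrome c oxidase, hands them to oxygen. Complexes I, III and IV pump protons as they do so, and complex V uses the return of those protons to make ATP. Most subunits are encoded in the nucleus, a few in mitochondrial DNA, and complex II is encoded in the nucleus alone. Several subunits of complex IV come as pairs or triplets of isoforms, of which 1 is used in most tissues and another in muscle, testis or lung. In marrow, quiescent stem cells are known to rely little on respiration and differentiating progeny more so.

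Nuclear genes of the chain are known for short promoter motifs bound by nuclear respiratory factor 1 (NRF1), by ETS family proteins such as GABP (also called NRF2), and by YY1. Of the 82 members, 68 have an entry in the RefSeq promoter table of GRCm38.p6, a window of 300 bases that runs mainly upstream of the annotated start. Both strands were searched for GCGC, any 2 bases and again GCGC (the NRF1 motif), for CCGGAAG (ETS) and for AAGATGG (YY1). The last 3 letters of the ETS motif are the first 3 of the YY1 motif, so 1 stretch can hold both. The NRF1 letters stood in 17 of the 68 members (25%), against 6.997% of all 27025 promoters and 9.61% of the 17491 promoters of protein-coding genes. The ETS letters stood in 19 members (27.9%), against 9.93% of all promoters and 12.9% of those of protein-coding genes. The YY1 letters stood in 10 (14.7%), against 7.28% and 7.18%. At least 1 of the 3 motifs was found in 41 members (60.3%), against 21.5% of all promoters and 26.0% of those of protein-coding genes. By complex, NRF1 letters were found in 6 of 31 promoters of complex I, 6 of 15 of complex V and 1 of 11 of complex IV. YY1 letters were found in 6 promoters of complex I, 3 of complex V and 1 of complex IV, and in 0 of complexes II and III. Only Atp5j held both the ETS and the YY1 letters. A match describes letters in this window and no binding, and a promoter without a match says nothing of the factor. The following 4 are shown 5′ to 3′ on the gene's strand, with the motif letters in capitals. They are a member with matches to both NRF1 and ETS at 3 places (Cox6a1), the complex II gene described most fully in the comparisons (Sdhd), the member farthest from its level elsewhere on 1 array (Atp5g2), and a muscle isoform without a match (Cox7a1).
Cox6a1, chr5:115348909-115349208, minus strand, NRF1 at 2 places and ETS at 1: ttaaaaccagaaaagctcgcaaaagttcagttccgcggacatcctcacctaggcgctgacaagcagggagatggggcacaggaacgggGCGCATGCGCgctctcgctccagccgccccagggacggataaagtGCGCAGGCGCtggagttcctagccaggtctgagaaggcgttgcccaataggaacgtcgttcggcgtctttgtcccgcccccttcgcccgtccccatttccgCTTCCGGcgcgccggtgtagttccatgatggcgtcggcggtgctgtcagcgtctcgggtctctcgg
Sdhd, chr9:50603800-50604099, minus strand, NRF1 and then ETS: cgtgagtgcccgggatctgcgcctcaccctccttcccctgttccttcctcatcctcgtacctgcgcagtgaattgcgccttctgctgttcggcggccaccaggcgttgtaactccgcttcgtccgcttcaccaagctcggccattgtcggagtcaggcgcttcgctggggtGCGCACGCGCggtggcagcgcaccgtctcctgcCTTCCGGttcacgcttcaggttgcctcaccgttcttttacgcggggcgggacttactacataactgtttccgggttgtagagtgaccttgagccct
Atp5g2, chr15:102670998-102671297, minus strand, NRF1: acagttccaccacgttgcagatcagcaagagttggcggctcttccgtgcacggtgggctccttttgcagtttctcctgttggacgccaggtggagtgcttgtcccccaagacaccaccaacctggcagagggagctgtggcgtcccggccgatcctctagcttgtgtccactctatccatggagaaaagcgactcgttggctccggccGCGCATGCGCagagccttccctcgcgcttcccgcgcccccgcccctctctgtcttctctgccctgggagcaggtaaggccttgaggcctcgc
Cox7a1, chr7:30183921-30184220, plus strand, no match: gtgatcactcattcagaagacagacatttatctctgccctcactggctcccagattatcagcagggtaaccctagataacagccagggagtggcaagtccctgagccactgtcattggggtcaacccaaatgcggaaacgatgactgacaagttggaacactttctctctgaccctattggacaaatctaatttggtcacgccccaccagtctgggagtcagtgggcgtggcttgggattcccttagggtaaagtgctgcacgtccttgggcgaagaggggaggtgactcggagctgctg

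Expression values are log2 of the intensities that the authors deposited, so a difference of 1 is a doubling. Median intensity per array ran from 119 to 145. Instigator 4 and Matrigel 3 stood apart from the other arrays. On Instigator 4 the control probes at the 5′ end of beta-actin minus those at its 3′ end gave -3.41 on the log2 scale, where the other arrays lay between -0.81 and -0.51, and for Gapdh the value was -4.03, against -1.16 to -0.73 on the others. On Matrigel 3 the log2 intensities had a median of 7.18, and on the others of 6.90 to 7.01. The description of Instigator 5 names the PC3 tumour. It was kept with the Instigator arrays by its title and its source label, and results were also computed with it left out and with it moved. The difference of a named gene, at the probe set that stands for it, is followed by its value without Instigator 4 and Matrigel 3 where leaving them out turned its sign or moved it by over 1.5 times.

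None of the members differed between the groups by a test over all genes. In limma, with Benjamini-Hochberg adjustment over all 22626 probe sets, 0 of 154 member probe sets passed an adjusted p under 0.05 in any of the 3 comparisons, where 0% of all probe sets passed in each. At an unadjusted p under 0.05 there were 10 member probe sets for Instigator against Matrigel, 3 for Non-instigator against Matrigel and 5 for Instigator against Non-instigator (6.49%, 1.95% and 3.25%), where 10.3%, 2.11% and 5.6% of all probe sets reached it. The smallest adjusted p of a member was 0.439 for Instigator against Matrigel, 0.986 for Non-instigator against Matrigel and 0.813 for Instigator against Non-instigator. With Instigator 5 counted as Non-instigator, the smallest limma adjusted p of the first comparison was 0.268, and 0 members passed. In these pooled cells, fewer cells of a type and less RNA per cell cannot be told apart.

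At an unadjusted p under 0.05 in limma, used here as a description, 2 members lay higher and 2 lower on the Instigator than on the Matrigel arrays, which is 2.44% of the 82 members each way, where 3.63% of all genes were higher and 5.16% lower. They were Ndufv1 and Sdhd, higher, and Ndufa13 and Cox8c, lower. The direction depended on the scaling: quantile normalization left 2 members higher and 1 lower and turned the split over all genes to 829 higher and 460 lower, against 450 and 640 without it. Centring each array on its median gave 5 members higher and 1 lower, and 1067 higher and 340 lower of all genes. Between Non-instigator and Matrigel arrays, 0 members were higher and 1 was lower, Cox6a2, where 0.791% of all genes were higher and 1.17% lower. Here too the split over all genes turned, with 156 higher and 102 lower after quantile normalization, against 98 and 145 without it, and 0 members reached that p after either scaling. Between Instigator and Non-instigator arrays, 2 members were higher, Ndufc2 and Sdhd, and 1 was lower, Sdhaf4, where 2.41% of all genes were higher and 2.92% lower. With quantile normalization these were 3 and 0 members, and 414 and 287 of all genes, against 299 and 362 without it. Without Instigator 4 and Matrigel 3, 0 members reached an unadjusted p under 0.05 in any comparison, where 461, 150 and 537 of all 12393 genes were higher and 322, 79 and 413 lower in the same order of comparisons.

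Of the 82 members, 0 separated 2 groups without overlap in any comparison at the probe set that stands for the gene. Among all genes this happened for 1.12% upward and 1.21% downward for Instigator against Matrigel, for 0.347% and 0.403% for Non-instigator against Matrigel, and for 0.71% and 0.436% for Instigator against Non-instigator. Dimmer probe sets of 2 members did separate groups, all upward, as 1.02% of all probe sets did for Instigator against Matrigel and 0.751% for Instigator against Non-instigator. The dimmer set of Uqcrq, a small subunit of complex III, spanned 4.56 to 4.80 on the Instigator arrays, against 4.40 to 4.52 on the Matrigel arrays and 4.26 to 4.56 on the Non-instigator arrays. Its difference was 0.22 (SE 0.083) against Matrigel and 0.25 (SE 0.078) against Non-instigator, with limma adjusted p of 0.442 and 0.813. A dimmer set of Cox5b, a zinc-binding subunit of complex IV, spanned 4.59 to 4.82 on the Instigator arrays, against 4.43 to 4.51 on the Non-instigator arrays. The difference of that set was 0.19 (SE 0.12), with a limma adjusted p of 0.813. Over all probe sets of a gene, this comparison gave -0.072 to 0.25 for Uqcrq and -0.082 to 0.19 for Cox5b. Both dimmer sets read far below the median log2 intensity of any array, which ran from 6.90 to 7.18.

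The median difference over the 82 members was -0.0040 for Instigator against Matrigel, where the median over all genes was -0.016. Above 0 lay 39 members (47.6%, all genes 45.9%). The median was -0.047 for Non-instigator against Matrigel (all genes -0.036), with 33 members above 0 (40.2%, all genes 38.3%). It was 0.017 for Instigator against Non-instigator (all genes 0.025), with 46 members above 0 (56.1%, all genes 58.2%). The first 2 comparisons share the Matrigel arrays. Without Instigator 4 and Matrigel 3 the member medians were 0.039, -0.015 and 0.042, and those of all genes 0.026, 0.0048 and 0.022. The differences of single members ran from -0.44 to 0.50 in the first comparison, from -0.30 to 0.17 in the second and from -0.51 to 0.38 in the third. The median SE of a member's difference was 0.132, 0.132 and 0.125, so a 95% confidence interval reached 0.283, 0.283 and 0.267 to either side at the median. For a typical member, changes smaller than about that size could not be told from 0 even before adjustment. An adjusted p under 0.05 asks for larger changes still. Beside that, the SD among arrays of 1 group had a median over members of 0.207 on the Instigator, 0.161 on the Non-instigator and 0.165 on the Matrigel arrays, and the largest of a member's 3 absolute differences had a median of 0.157.

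**Figure D1:**
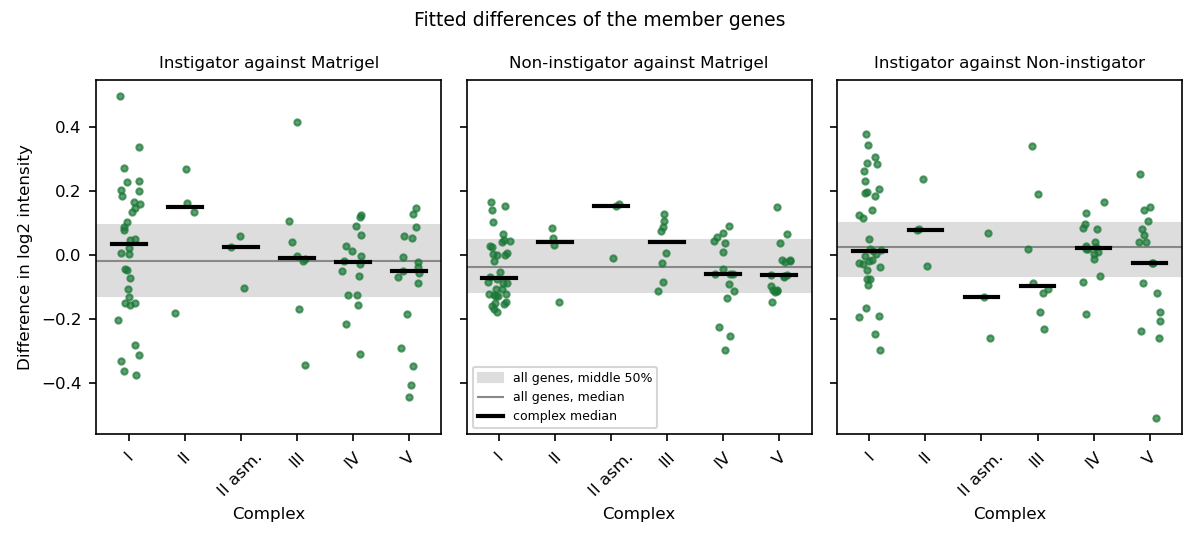
Fitted differences in log2 intensity of the 82 member genes (points) in the 3 comparisons, by complex, with complex medians (black bars). II asm. marks the 3 complex II assembly factors, and the grey line and band show the median and middle 50% of all 12393 genes; no member passed an adjusted p under 0.05.

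By complex, the medians for Instigator against Matrigel were 0.036 for complex I, 0.15 for complex II, -0.0077 for complex III, -0.022 for complex IV and -0.048 for complex V. Non-instigator against Matrigel gave -0.071, 0.043, 0.041, -0.058 and -0.062 in the same order. There 3 of 17 complex V members lay above 0 (17.6%), where 38.3% of all genes did. Without Instigator 4 and Matrigel 3 it was 7 of 17 (41.2%), where 52.1% of all genes lay above 0. Instigator against Non-instigator gave 0.015, 0.081, -0.095, 0.022 and -0.023. The quartiles of complex I for Instigator against Matrigel were -0.14 and 0.16, beside -0.13 and 0.094 for all genes. Of the medians of complexes I to V, the farthest from 0 was that of complex II in the first comparison, which rests on 4 genes, and members of each complex stood on both sides of 0 in every comparison. Without Instigator 4 and Matrigel 3 the medians of complexes I to V were 0.016, 0.13, 0.057, 0.029 and 0.044 for Instigator against Matrigel, -0.030, 0.016, -0.0030, -0.013 and -0.0089 for Non-instigator against Matrigel, and 0.026, 0.071, 0.027, 0.042 and 0.053 for Instigator against Non-instigator. The signs for complexes III, IV and V in the first comparison, III in the second, and III and V in the third thus turned.

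On several arrays of each group, most members lay on the same side of their own means. The offset of an array is the mean over members of its log2 value minus the member's mean over the 14 arrays. Offsets were 0.11, -0.074, 0.063, -0.087 and -0.0055 on Instigator arrays 1 to 5, 0.11, 0.12, -0.044, -0.15 and -0.10 on Non-instigator arrays 1 to 5, and -0.019, -0.081, 0.085 and 0.083 on Matrigel arrays 1 to 4. Each group held arrays above and below 0, and the group means were 0.0015 ± 0.086 (SD, n = 5) for Instigator, -0.015 ± 0.12 (SD, n = 5) for Non-instigator and 0.017 ± 0.081 (SD, n = 4) for Matrigel. On Non-instigator 1 and 2, 72 and 66 of the 82 members lay above their own means, while on Non-instigator 4 and 5 only 8 and 21 did. The Non-instigator arrays thus held both ends of the range over all 14 arrays. Over all genes the mean offset was 0.13 on Matrigel 3, above its member offset, and between -0.026 and 0.022 on the other arrays.

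**Figure D2:**
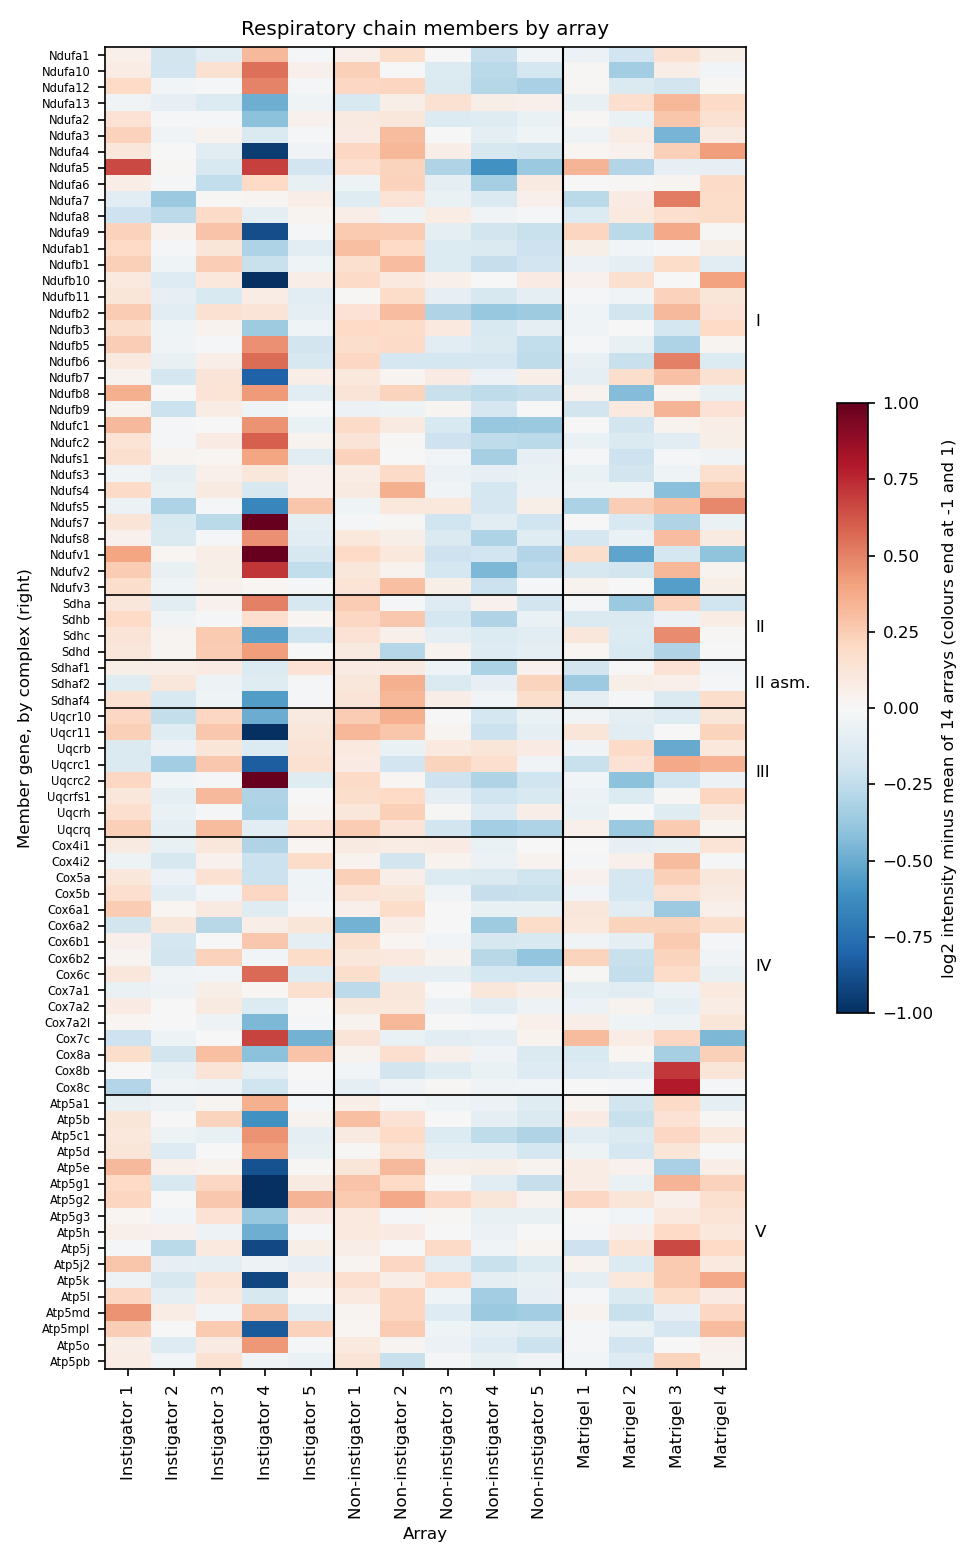
Log2 intensity of each of the 82 members (rows, by complex, with the 3 complex II assembly factors marked II asm.) on each array (columns, by group), minus the member's mean over the 14 arrays. Columns of mostly 1 colour, such as Non-instigator 1 and Non-instigator 4, show members that lay together above or below their means, and Instigator 4 holds the strongest values of both colours.

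The median Pearson correlation over the 3321 pairs of members was 0.207 across the 14 arrays, with the groups pooled, beside 0.0425 over all pairs of genes. It was 0.362 without Instigator 4 (all genes 0.0528) and 0.456 without Instigator 4 and Matrigel 3 (all genes 0.0118). These values are a description, since all genes of an array share its RNA sample, labelling and normalization. Most members also read above the median intensity of the arrays, and the pairs of all genes were not matched for brightness. Within complexes, without both arrays, the median was 0.569 for complex I, 0.439 for complex II, 0.551 for complex III, 0.511 for complex V and 0.160 for complex IV, which holds most of the tissue isoforms. Non-instigator 1 was among the highest arrays for complexes I, II, III and V and Non-instigator 4 among the lowest. In complex IV Non-instigator 4 was also the lowest array, at -0.11, and Non-instigator 1 stood at 0.028. The offsets of complex IV stayed between -0.11 and 0.15 on all arrays.

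**Figure D3:**
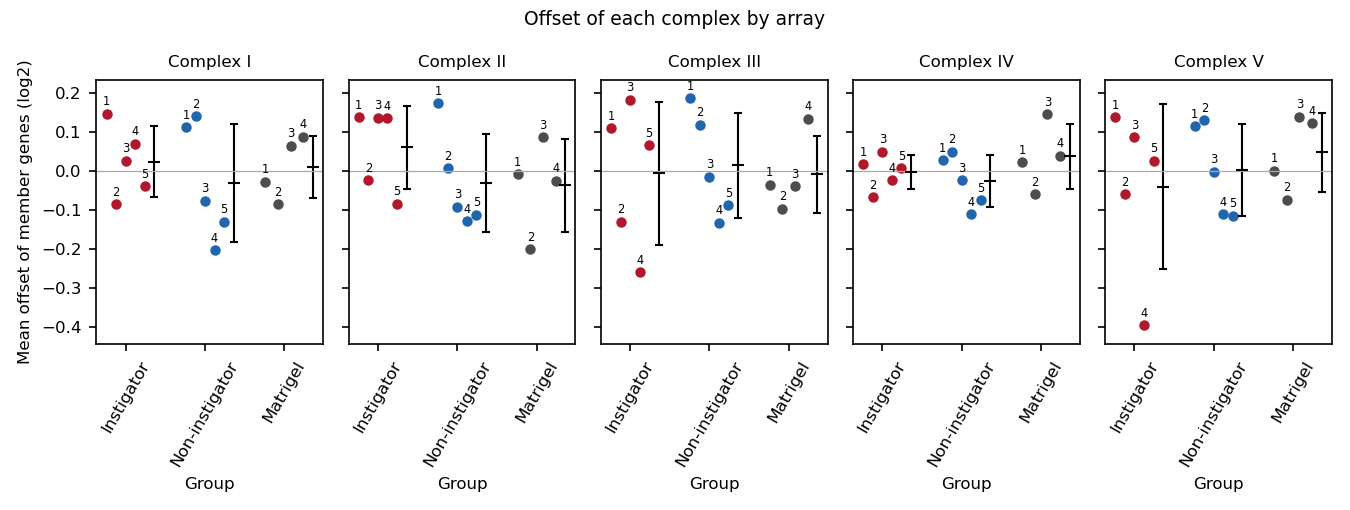
Mean offset of the members of each complex on each array (points, numbered by replicate) in log2 units, with the group mean and SD (bars to the right of the points; n = 5 Instigator, 5 Non-instigator, 4 Matrigel). Groups overlap in every complex, and Instigator 4 lies at -0.40 in complex V and -0.26 in complex III but at 0.070 in complex I.

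Other lists also varied over the arrays. The 74 measured genes of the mitochondrial ribosome, which translates the subunits encoded in mitochondrial DNA, had offsets of 0.16 and 0.14 on Non-instigator 1 and 2, and of -0.19 and -0.12 on Non-instigator 4 and 5. Markers of T cells, 10 of 14 listed genes measured, stood at 0.81 and 0.55 on Non-instigator 4 and 5, at -0.53 on Non-instigator 1, at -0.010 on Non-instigator 2, the array with the highest member offset, and at -0.79 on Instigator 3. On Matrigel 3 the T cell and the member offset both lay above 0, at 0.23 and 0.085, as did that of all genes at 0.13. Over groups the T cell offset ranged from -0.79 to 0.058 on the Instigator arrays, from -0.53 to 0.81 on the Non-instigator arrays and from -0.093 to 0.23 on the Matrigel arrays. Its B lineage counterpart, 14 of 15 listed genes measured, ranged from -1.01 to 0.15 on the Instigator, from -0.66 to 0.66 on the Non-instigator and from -0.15 to 0.45 on the Matrigel arrays. The part of these cell types in the member offsets was not tested.

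Complex I, the NADH dehydrogenase, is the largest of the complexes. Its core flavoprotein subunit Ndufv1, where NADH is oxidised, read 9.87, 9.50, 9.54, 10.48 and 9.32 on the Instigator arrays, 9.67, 9.58, 9.27, 9.28 and 9.18 on the Non-instigator arrays, and 9.65, 8.95, 9.30 and 9.07 on the Matrigel arrays. Instigator 4 stood above every other array, and without it the Instigator arrays still overlapped with both other groups. For Instigator against Matrigel the difference was 0.50 (SE 0.21, 95% confidence interval 0.050 to 0.94, 1.41-fold, limma adjusted p = 0.449), and it was 0.31 without Instigator 4 and 0.33 without Instigator 4 and Matrigel 3. All 3 probe sets of Ndufv1 lay higher on the Instigator than on the Matrigel arrays, by 0.28 to 0.50. Ndufa13, an accessory subunit of the membrane arm also called GRIM-19, read 11.80, 11.75, 11.70, 11.35 and 11.80 on the Instigator arrays, 11.68, 11.90, 11.99, 11.90 and 11.89 on the Non-instigator arrays, and 11.77, 12.003, 12.17 and 12.03 on the Matrigel arrays. Of the Matrigel arrays, 3 lay above every Instigator array and Matrigel 1 did not, and Instigator 4 was the lowest of the 14. The difference for Instigator against Matrigel was -0.31 (SE 0.11, 95% confidence interval -0.54 to -0.077, limma adjusted p = 0.439), the smallest p among the members, and -0.17 without Instigator 4 and Matrigel 3. For Instigator against Non-instigator it was -0.19 (SE 0.10), and -0.11 without those 2 arrays.

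Ndufc2, a further accessory subunit of the membrane arm, read 11.58, 11.42, 11.52, 12.04 and 11.48 on the Instigator arrays, 11.57, 11.45, 11.23, 11.18 and 11.17 on the Non-instigator arrays, and 11.37, 11.29, 11.33 and 11.50 on the Matrigel arrays. Instigator 4 was the highest array, Non-instigator 3, 4 and 5 were the lowest, and Non-instigator 1 and 2 lay within the Instigator range. Against Non-instigator the difference was 0.29 (SE 0.12, limma adjusted p = 0.813), and 0.18 without Instigator 4 and Matrigel 3. Its other probe set lay 0.40 below the mean of the 13 other arrays on Instigator 4, while the set given here lay 0.64 above it. Ndufa4, named for complex I but held in current knowledge to be a subunit of complex IV, read 10.16, 10.04, 9.94, 9.09 and 10.01 on the Instigator arrays, 10.25, 10.37, 10.11, 9.89 and 9.86 on the Non-instigator arrays, and 10.06, 10.08, 10.28 and 10.46 on the Matrigel arrays. Instigator 4 was far below the other arrays, which overlapped. Its difference for Instigator against Matrigel was -0.37 (SE 0.19) and -0.17 without Instigator 4 and Matrigel 3. Its paralog Ndufa4l2 was not measured by a member probe set.

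Further complex I genes had the next smallest p in 1 comparison and are given by their ranges. For Instigator against Matrigel, Ndufb8, an accessory subunit of the membrane arm, spanned 10.26 to 10.80 on the Instigator arrays, 10.12 to 10.60 on the Non-instigator arrays and 9.94 to 10.41 on the Matrigel arrays, with a difference of 0.27 (SE 0.14). For Instigator against Non-instigator, Ndufa5, an accessory subunit of the peripheral arm, spanned 10.26 to 11.13 on the Instigator arrays, 9.84 to 10.67 on the Non-instigator arrays and 10.16 to 10.79 on the Matrigel arrays, with a difference of 0.38 (SE 0.21). Ndufc1, of the membrane arm, spanned 10.67 to 11.18 on the Instigator arrays, 10.36 to 10.92 on the Non-instigator arrays and 10.55 to 10.80 on the Matrigel arrays, with a difference of 0.26 (SE 0.13). These 3 were high on Instigator 1 and 4, and the groups overlapped in each. The membrane arm subunit Ndufb10 went the other way for Instigator against Non-instigator, at -0.29 (SE 0.20), and spanned 10.21 to 11.50 on the Instigator arrays, 11.40 to 11.59 on the Non-instigator arrays and 11.40 to 11.79 on the Matrigel arrays. Instigator 4 alone set the lower end of that range, and without it and Matrigel 3 the difference was -0.049. For Non-instigator against Matrigel, the accessory subunits Ndufv3 and Ndufa3 lay higher by 0.17 (SE 0.13) and 0.14 (SE 0.12). Ndufv3 spanned 11.30 to 11.52 on the Instigator arrays, 11.13 to 11.64 on the Non-instigator arrays and 10.80 to 11.41 on the Matrigel arrays, and Ndufa3 spanned 11.02 to 11.40 on the Instigator arrays, 11.08 to 11.49 on the Non-instigator arrays and 10.70 to 11.26 on the Matrigel arrays. Matrigel 3 gave the lowest value of both, and without it and Instigator 4 the differences were 0.023 and 0.014. Ndufa7, of the peripheral arm, spanned 9.04 to 9.48 on the Instigator arrays, 9.27 to 9.55 on the Non-instigator arrays and 9.14 to 9.92 on the Matrigel arrays, and the membrane arm subunit Ndufb9 spanned 10.20 to 10.48 on the Instigator arrays, 10.25 to 10.44 on the Non-instigator arrays and 10.23 to 10.75 on the Matrigel arrays. Their differences for Non-instigator against Matrigel were -0.16 (SE 0.14) and -0.15 (SE 0.10), with Matrigel 3 the highest array in both, and -0.030 and -0.066 without it and Instigator 4.

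Complex II, succinate dehydrogenase, also works in the TCA cycle. Sdhd, 1 of its 2 membrane anchors, read 10.91, 10.83, 11.05, 11.22 and 10.80 on the Instigator arrays, 10.89, 10.52, 10.83, 10.67 and 10.71 on the Non-instigator arrays, and 10.82, 10.65, 10.50 and 10.81 on the Matrigel arrays. Instigator 4, 3 and 1 were the 3 highest arrays, while Instigator 2 and 5 lay within the range of the other groups. The difference was 0.27 against Matrigel (SE 0.11, 95% confidence interval 0.036 to 0.50, limma adjusted p = 0.445) and 0.24 against Non-instigator (SE 0.10, limma adjusted p = 0.813). Without Instigator 4 and Matrigel 3 these were 0.14 and 0.17. The 2 probe sets of Sdhd disagreed against Matrigel, with differences of -0.17 and 0.27, and on Instigator 4, where 1 lay 0.63 below and the other 0.45 above the mean of the other arrays. The set that stands for the gene carries the suffix x_at, which marks probes shared with other transcripts. The same suffix marks the sets that stand for 10 members in all, Ndufv1 among them.

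Sdhc, the other anchor, read 9.27, 9.17, 9.40, 8.60 and 8.95 on the Instigator arrays, 9.29, 9.19, 9.05, 9.01 and 9.03 on the Non-instigator arrays, and 9.26, 9.003, 9.61 and 9.16 on the Matrigel arrays. Instigator 4 was the lowest and Matrigel 3 the highest array, and the rest overlapped. Its difference against Matrigel was -0.18 (SE 0.15) for Instigator, and 0.059 without those 2 arrays. Sdha, the flavoprotein that oxidises succinate, read 10.76, 10.53, 10.69, 11.15 and 10.49 on the Instigator arrays, 10.90, 10.64, 10.52, 10.70 and 10.47 on the Non-instigator arrays, and 10.63, 10.28, 10.88 and 10.45 on the Matrigel arrays. The groups overlapped, with Instigator 4 highest and Matrigel 2 lowest. The difference was 0.16 (SE 0.15) for Instigator against Matrigel at this probe set and 0.27 at the dimmer one. Sdhb, the iron-sulphur subunit, read 10.03, 9.80, 9.83, 10.01 and 9.86 on the Instigator arrays, 10.04, 10.11, 9.66, 9.54 and 9.78 on the Non-instigator arrays, and 9.69, 9.69, 9.78 and 9.91 on the Matrigel arrays. Its groups overlapped, with a difference of 0.14 (SE 0.12) for Instigator against Matrigel.

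Among the assembly factors, Sdhaf4, which assists the attachment of Sdha, spanned 7.95 to 8.66 on the Instigator arrays, 8.47 to 8.83 on the Non-instigator arrays and 8.35 to 8.68 on the Matrigel arrays. For Instigator against Non-instigator the difference was -0.26 (SE 0.12, limma adjusted p = 0.813), and -0.15 without Instigator 4 and Matrigel 3. Instigator 4 was the lowest array and Non-instigator 2 the highest. Sdhaf2, which inserts the flavin into Sdha, spanned 8.61 to 8.85 on the Instigator arrays, 8.59 to 9.09 on the Non-instigator arrays and 8.37 to 8.79 on the Matrigel arrays. It lay 0.16 (SE 0.12) higher on the Non-instigator than on the Matrigel arrays, where Matrigel 1 was the lowest array.

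Complex III, the cytochrome bc1 complex, carries 2 large core proteins that resemble mitochondrial processing peptidases. Uqcrc2, core protein 2, read 11.27, 11.04, 11.05, 12.22 and 10.94 on the Instigator arrays, 11.25, 11.08, 10.85, 10.76 and 10.86 on the Non-instigator arrays, and 11.03, 10.65, 10.86 and 11.01 on the Matrigel arrays. Instigator 4 stood far above the other 13 arrays, which overlapped. The difference for Instigator against Matrigel was 0.42 (SE 0.21), and 0.18 without Instigator 4 and Matrigel 3. Uqcrc1, core protein 1, read 9.27, 9.07, 9.69, 8.59 and 9.57 on the Instigator arrays, 9.50, 9.22, 9.64, 9.59 and 9.38 on the Non-instigator arrays, and 9.20, 9.56, 9.80 and 9.77 on the Matrigel arrays. Here Instigator 4 was the lowest array and Matrigel 3 and 4 were the highest. The difference for Instigator against Matrigel was -0.34 (SE 0.19), and -0.11 without those 2 arrays. The 2 core proteins are built into the complex in equal numbers, and their fitted differences for Instigator against Matrigel had opposite signs with all arrays and also without those 2. Uqcrb, the ubiquinone-binding subunit, spanned 12.37 to 12.64 on the Instigator arrays, 12.45 to 12.64 on the Non-instigator arrays and 12.01 to 12.71 on the Matrigel arrays. Its difference for Non-instigator against Matrigel was 0.13 (SE 0.12), and -0.021 without Matrigel 3, the lowest array, and Instigator 4.

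Complex IV holds isoforms that differ between tissues, and levels of different probe sets were not set against each other. Cox4i1, the common isoform of subunit 4, read 11.60, 11.44, 11.63, 11.22 and 11.54 on the Instigator arrays, 11.60, 11.59, 11.60, 11.45 and 11.51 on the Non-instigator arrays, and 11.52, 11.43, 11.44 and 11.65 on the Matrigel arrays. Its lung-enriched partner Cox4i2 read 6.11, 6.002, 6.21, 5.95 and 6.35 on the Instigator arrays, 6.19, 5.97, 6.19, 6.11 and 6.20 on the Non-instigator arrays, and 6.14, 6.21, 6.48 and 6.15 on the Matrigel arrays. Both overlapped between groups, and for Instigator against Matrigel the differences were -0.026 (SE 0.092) for Cox4i1 and -0.12 (SE 0.10) for Cox4i2. Without Instigator 4, the lowest array in both, and Matrigel 3 they were 0.018 and -0.0032. Cox6a1, the common isoform of subunit 6a, read 11.53, 11.30, 11.37, 11.16 and 11.26 on the Instigator arrays, 11.33, 11.46, 11.28, 11.20 and 11.20 on the Non-instigator arrays, and 11.40, 11.17, 10.92 and 11.33 on the Matrigel arrays. Matrigel 3 was its lowest array, and the difference for Instigator against Matrigel was 0.12 (SE 0.11) here, 0.066 without Instigator 4 and Matrigel 3, and -0.10 at its dimmer probe set. The heart and skeletal muscle isoform Cox6a2, which plasmacytoid dendritic cells are also known to express, read 8.51, 8.80, 8.42, 8.76 and 8.82 on the Instigator arrays, 8.22, 8.76, 8.70, 8.34 and 8.88 on the Non-instigator arrays, and 8.80, 8.92, 8.92 and 8.87 on the Matrigel arrays. The 4 Matrigel arrays lay close together near the top, while each tumour group spread from below them into their range. At the probe sets that stand for the genes, Cox6a2 had the smallest p for Non-instigator against Matrigel, at -0.30 (SE 0.13, 95% confidence interval -0.58 to -0.011, limma adjusted p = 0.986). For Instigator against Matrigel the difference was -0.21 (SE 0.13). Without Instigator 4 and Matrigel 3 these were -0.28 and -0.22, so neither array carried the difference.

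Dendritic cell markers varied over the arrays beside Cox6a2. Of 13 listed genes 11 were measured, and their mean offset ranged from -0.67 to 0.24 on the Instigator arrays, from -0.49 to 0.39 on the Non-instigator arrays and from 0.098 to 0.56 on the Matrigel arrays. Siglech, a defining gene of plasmacytoid dendritic cells, is not among the measured ones, nor is Clec9a. Instigator 1 and 3 and Non-instigator 1 were low in both Cox6a2 and the markers. Instigator 4 was low in the markers with Cox6a2 at 8.76, and Non-instigator 4 had Cox6a2 at 8.34 with a marker offset of -0.028. The median difference of the list was -0.66 for Instigator against Matrigel. At an unadjusted p under 0.05 in limma 8 of 11 genes were lower, where 5.16% of all genes were, and 0 passed an adjusted p under 0.05. The list was chosen with earlier results of these data known, and markers of a cell type can vary together. That count is therefore a description and no test. The median was -0.31 for Non-instigator against Matrigel and -0.29 for Instigator against Non-instigator, and without Instigator 4 and Matrigel 3 the 3 medians were -0.51, -0.32 and -0.19. The part of these cells in the Cox6a2 difference was not tested.

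**Figure D4:**
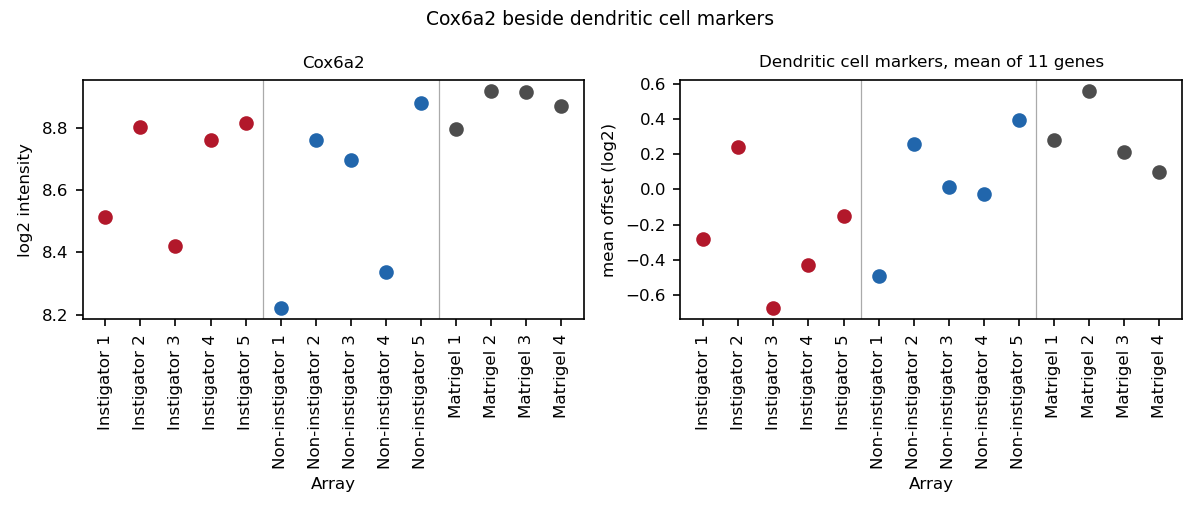
Log2 intensity of Cox6a2 (left) and the mean log2 offset of 11 dendritic cell marker genes (right) on each array, in the order Instigator, Non-instigator, Matrigel. The 4 Matrigel arrays lie between 8.80 and 8.92 for Cox6a2 and above 0 for the markers, and both tumour groups spread below and into those ranges.

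The remaining isoforms of complex IV overlapped between the groups. Cox6b1, the common form of subunit 6b, read 11.90, 11.67, 11.84, 12.12 and 11.76 on the Instigator arrays, 12.01, 11.87, 11.82, 11.69 and 11.70 on the Non-instigator arrays, and 11.82, 11.75, 12.11 and 11.83 on the Matrigel arrays. The testis form Cox6b2 read 8.84, 8.63, 9.05, 8.79 and 8.997 on the Instigator arrays, 8.93, 8.91, 8.85, 8.54 and 8.42 on the Non-instigator arrays, and 9.03, 8.59, 9.04 and 8.78 on the Matrigel arrays. For Non-instigator against Matrigel their differences were -0.059 (SE 0.11) and -0.13 (SE 0.13), with Non-instigator 4 and 5 the lowest arrays for Cox6b2, and 0.020 and -0.075 without Instigator 4 and Matrigel 3. Cox7a1, the heart and muscle form of subunit 7a, read 5.77, 5.79, 5.90, 5.86 and 5.995 on the Instigator arrays, 5.57, 5.95, 5.83, 5.95 and 5.91 on the Non-instigator arrays, and 5.75, 5.74, 5.78 and 5.93 on the Matrigel arrays. Its common partner Cox7a2 read 12.81, 12.73, 12.83, 12.59 and 12.73 on the Instigator arrays, 12.84, 12.84, 12.68, 12.63 and 12.68 on the Non-instigator arrays, and 12.67, 12.77, 12.65 and 12.81 on the Matrigel arrays. Cox7a2 differed by 0.013 for Instigator against Matrigel and by 0.0096 for Non-instigator against Matrigel, each with an SE of 0.079, and by 0.023 and -0.017 without Instigator 4 and Matrigel 3, and its arrays lay close together. Cox7a2l, a relative of these that joins complexes III and IV into supercomplexes, read 10.54, 10.52, 10.48, 10.07 and 10.51 on the Instigator arrays, 10.56, 10.86, 10.53, 10.51 and 10.57 on the Non-instigator arrays, and 10.60, 10.48, 10.47 and 10.65 on the Matrigel arrays. Instigator 4 was the lowest and Non-instigator 2 the highest array, and the rest lay within a narrow band. The difference for Instigator against Non-instigator was -0.18 (SE 0.10), and -0.094 without Instigator 4 and Matrigel 3.

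Subunit 8 has 3 isoforms in the mouse. Cox8a, the common one, read 9.84, 9.49, 9.97, 9.26 and 9.95 on the Instigator arrays, 9.70, 9.84, 9.72, 9.64 and 9.53 on the Non-instigator arrays, and 9.52, 9.69, 9.34 and 9.91 on the Matrigel arrays. Its groups overlapped, and its 3 probe sets lay on both sides of the other arrays on Instigator 4. The muscle form Cox8b read 6.74, 6.67, 6.87, 6.64 and 6.73 on the Instigator arrays, 6.71, 6.56, 6.62, 6.67 and 6.61 on the Non-instigator arrays, and 6.61, 6.63, 7.44 and 6.86 on the Matrigel arrays, and the testis form Cox8c read 6.55, 6.81, 6.79, 6.65 and 6.83 on the Instigator arrays, 6.76, 6.81, 6.86, 6.81 and 6.82 on the Non-instigator arrays, and 6.84, 6.83, 7.64 and 6.83 on the Matrigel arrays. Both were highest on Matrigel 3, the array with the high median intensity, and for Cox8c the other 13 arrays lay between 6.55 and 6.86. The difference of Cox8c for Instigator against Matrigel was -0.31 (SE 0.14, limma adjusted p = 0.480), and -0.11 without Matrigel 3 and -0.088 without Instigator 4 as well. That of Cox8b for Non-instigator against Matrigel was -0.25 (SE 0.14), and -0.065 without Matrigel 3.

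Complex V is built around a ring of c subunits that 3 genes encode with the same mature protein. Atp5g1 read 11.22, 10.87, 11.23, 9.95 and 11.11 on the Instigator arrays, 11.31, 11.23, 11.02, 10.92 and 10.80 on the Non-instigator arrays, and 11.10, 10.96, 11.36 and 11.25 on the Matrigel arrays. Atp5g2 read 10.85, 10.64, 10.91, 8.27 and 10.98 on the Instigator arrays, 10.90, 11.02, 10.84, 10.76 and 10.67 on the Non-instigator arrays, and 10.84, 10.76, 10.68 and 10.80 on the Matrigel arrays. Atp5g3 read 12.33, 12.28, 12.45, 11.92 and 12.39 on the Instigator arrays, 12.40, 12.29, 12.31, 12.23 and 12.23 on the Non-instigator arrays, and 12.31, 12.28, 12.40 and 12.44 on the Matrigel arrays. In all 3 genes Instigator 4 was the lowest array, for Atp5g2 by the widest margin of any member, and the groups overlapped otherwise. For Instigator against Matrigel the differences were -0.29 (SE 0.22), -0.44 (SE 0.41) and -0.086 (SE 0.099). Without Instigator 4 and Matrigel 3 they were 0.0058, 0.043 and 0.017, so the sign turned in each. Against Non-instigator, Atp5g2 gave -0.51 (SE 0.39) with all arrays and 0.0054 without those 2.

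Atp5j, coupling factor 6 of the stalk, read 11.01, 10.75, 11.12, 10.12 and 11.08 on the Instigator arrays, 11.09, 11.03, 11.22, 10.99 and 11.05 on the Non-instigator arrays, and 10.82, 11.16, 11.69 and 11.22 on the Matrigel arrays. Instigator 4 was the lowest and Matrigel 3 the highest array, and the 12 others overlapped. The difference for Instigator against Matrigel was -0.41 (SE 0.19), the smallest p in complex V, and -0.076 without those 2 arrays. Atp5k, the membrane subunit e that takes part in pairing ATP synthases, read 10.68, 10.57, 10.87, 9.82 and 10.79 on the Instigator arrays, 10.90, 10.79, 10.93, 10.64 and 10.65 on the Non-instigator arrays, and 10.63, 10.84, 10.99 and 11.11 on the Matrigel arrays. Again Instigator 4 was lowest, and Matrigel 4 was highest. The difference for Instigator against Matrigel was -0.34 (SE 0.18), and -0.13 without Instigator 4 and Matrigel 3. Atp5md, a small membrane subunit also called DAPIT, spanned 9.89 to 10.44 on the Instigator arrays, 9.62 to 10.21 on the Non-instigator arrays and 9.77 to 10.20 on the Matrigel arrays. It lay 0.26 (SE 0.14) higher on the Instigator than on the Non-instigator arrays, where Non-instigator 4 and 5 were lowest, and 0.22 without Instigator 4 and Matrigel 3.

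Instigator 4 split the members in both directions. Of the 82, 31 were lowest and 25 highest on it among the 14 arrays (37.8% and 30.5%), where 21.1% and 21.1% of all genes were. The shares over all genes here were not matched to the members for brightness. On Matrigel 3 the shares were 9.76% and 22.0% of members and 12.9% and 34.0% of all genes. Measured from the mean of the other 13 arrays, the members farthest below on Instigator 4 were Atp5g2 at -2.55, Ndufb10 at -1.28, Atp5g1 at -1.15 and Uqcr11, a small subunit of complex III, at -1.14. Farthest above were Ndufs7, an iron-sulphur subunit of complex I, at 1.53, Uqcrc2 at 1.25 and Ndufv1 at 1.08. In complex V, 9 of 17 members lay below all other arrays and 4 above them, and in complex I 9 of 34 lay below and 14 above. Of the 45 genes with several probe sets, 8 had sets both below and above all other arrays on Instigator 4: Atp5d, Cox5a, Cox5b, Cox8a, Ndufa12, Ndufc2, Ndufs8 and Sdhd. Signs of a fitted difference also disagreed between probe sets of a gene over all arrays, in 19 of the 45 genes for Instigator against Matrigel, 20 for Non-instigator against Matrigel and 16 for Instigator against Non-instigator.

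**Figure D5:**
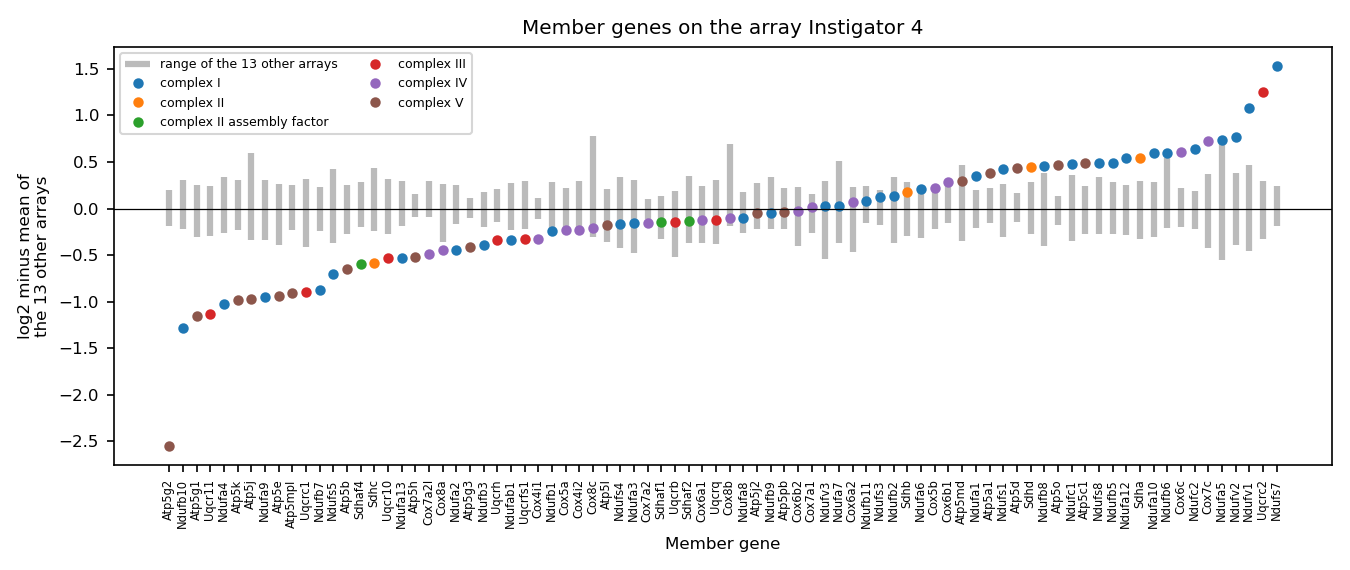
Deviation of each of the 82 members on Instigator 4 from its mean over the other 13 arrays (points, coloured by complex, in log2 units), in order of size, with the range of those 13 arrays (grey bars). Atp5g2 lies at -2.55 and Ndufs7 at 1.53, and 56 members lie outside the range of the other arrays.

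Genes around the chain were summarised from lists of the pathway, and 0 of their genes passed an adjusted p under 0.05 in limma in any comparison. Of 28 assembly factors 20 were measured, with median differences of 0.067 for Instigator against Matrigel, -0.055 for Non-instigator against Matrigel and 0.16 for Instigator against Non-instigator, and of 0.081, -0.019 and 0.097 without Instigator 4 and Matrigel 3. Among them Foxred1, a complex I assembly factor, lay 0.29 (SE 0.13) higher on the Instigator than on the Non-instigator arrays, and 0.16 higher without those 2 arrays. It was the only one of the 20 at an unadjusted p under 0.05 in limma, where 2.41% of all genes were higher in that comparison. Of 12 other chain components 10 were measured, with medians of 0.046, -0.021 and 0.0022, and of 0.067, -0.019 and 0.092 without them. Cytochrome c1 (Cyc1), the haem subunit of complex III whose symbol the rule does not take, lay higher on the Instigator than on the Matrigel arrays by 0.46 (SE 0.17), and by 0.20 without Instigator 4 and Matrigel 3. Gpd2, the mitochondrial glycerol phosphate dehydrogenase, lay 0.21 (SE 0.073) higher on the Non-instigator and 0.20 (SE 0.073) higher on the Instigator than on the Matrigel arrays. Without Instigator 4 and Matrigel 3 these were 0.16 and 0.12.

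Of 17 TCA cycle genes 16 were measured, with medians of 0.20, 0.045 and 0.096 in the same order of comparisons, and of 0.091, 0.055 and 0.032 without Instigator 4 and Matrigel 3. At an unadjusted p under 0.05 in limma, 3 of the 16 lay higher on the Instigator than on the Matrigel arrays, where 3.63% of all genes did. They were led by the isocitrate dehydrogenase subunit Idh3g at 0.54 (SE 0.20), which was 0.22 without those 2 arrays. The list as a whole had offsets of -0.077 to 0.25 on the Instigator arrays, -0.16 to 0.26 on the Non-instigator arrays and -0.21 to -0.0083 on the Matrigel arrays, with Instigator 4 at 0.25. For Instigator against Non-instigator, fumarase (Fh1) differed by 0.40 (SE 0.19) and the succinate ligase subunit Suclg2 by -0.30 (SE 0.13), and by 0.22 and -0.20 without Instigator 4 and Matrigel 3. Of 10 genes of coenzyme Q synthesis 6 were measured, with medians of -0.086, -0.11 and 0.10, and of 0.039, 0.0023 and 0.051 without them. Of 17 regulators of mitochondrial biogenesis 15 were measured, with medians of -0.0065, -0.046 and 0.040, and of 0.059, 0.015 and 0.038 without them. Nrf1, which encodes the factor of the first promoter motif, had the smallest p of that list for Instigator against Matrigel, at -0.36 (SE 0.13, limma adjusted p = 0.439), and -0.23 without Instigator 4 and Matrigel 3. The 74 genes of the mitochondrial ribosome had medians of -0.072, -0.058 and -0.030, and of 0.029, -0.014 and 0.030 without those 2 arrays. Of these, Mrpl44 lay 0.29 (SE 0.13) higher and Mrps31 differed by -0.30 (SE 0.14) for Instigator against Matrigel, and without those 2 arrays the differences were 0.17 and -0.11. They were the 1 in each direction at an unadjusted p under 0.05 in limma, where 3.63% of all genes were higher and 5.16% lower.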

How the data were processed

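The authors deposited linear intensity values made with RMA, run through the affy package of R 2.11.0, per the submitters' processing notes; RNA extraction used Qiagen kits and labelling the NuGen Ovation biotin system, per the labels' protocols. Their settings and a genome build are not stated in those sources. Log2 was taken of the deposited intensities with no further normalization. The 64 control probe sets were left out. Gene names came from the platform annotation. All 14 arrays entered 1 limma 3.58.1 fit (R 4.3.3; lmFit, contrasts.fit, eBayes) with group as factor, with Benjamini-Hochberg adjustment over 22626 probe sets and a threshold of 0.05. The fit was tested on simulated data with the probe sets' own means and spreads and 200 changed probe sets, 50 each by 0.5, 1, 1.5 and 2. Of those changed by 0.5, 48% were called for Instigator against Matrigel. For Non-instigator against Matrigel 44% were called, and for Instigator against Non-instigator 46%. The simulated noise was independent between probe sets and held no outlying array, and the larger seeded changes ease the adjusted threshold. These shares therefore need not hold for the real arrays. The number of arrays limits the precision. The closest 2 arrays of 91 pairs, Matrigel 2 and Non-instigator 3, differed by a median of 0.0954, so none was a duplicate. Nothing in the labels ties arrays of the same replicate number, so they were not paired. Correlations of same-numbered deviations ran from -0.201 to 0.269. They were not set beside those of other pairs and cannot exclude a pairing.

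The 39 genes named among the members are, by a fixed rule, any called gene, the 2 with the smallest p in each complex (1 in complex II), the 5 per direction and comparison with the smallest p, and the isoform and Sdh genes. Ndufs7, Uqcr11 and the probe sets of Uqcrq and Cox5b were named after their values were seen. The members, lists and rules were chosen with earlier results of these data known. Alternatives were the groups compared alone, brighter probe sets, quantile normalization, centring, trend with robust estimation, array weights, replicate block, each array left out, Instigator 5 moved, Instigator 4 and Matrigel 3 left out, and averaging each gene's probe sets; leaving out the 3 Sdhaf genes was added after the data were seen. Promoters came from RefSeq (GRCm38.p6). Plots used matplotlib 3.10.9 in Python 3.11.15.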

Additional observations from a re-analysis of the deposited data

Results flagged for a closer look

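In 14 of 135 examined sets of values, each the arrays of 1 group for a named gene or a complex mean, 1 array lay far from the others by Dixon's gap test at the 95% level. Chance flags about 1 in 20 such sets if they are independent and not picked by their values. Many of these genes were picked by their p in these data, and complex means share genes with them. That rate is therefore no yardstick for the 14, of which 9 lay on Instigator 4. On Instigator 4, 7 genes were far below the other Instigator arrays: Ndufa13 at 11.35 (others 11.70 to 11.80), Ndufa4 at 9.09 (9.94 to 10.16), Ndufb10 at 10.21 (11.26 to 11.50), Cox7a2l at 10.07 (10.48 to 10.54), Atp5g1 at 9.95 (10.87 to 11.23), Atp5g2 at 8.27 (10.64 to 10.98) and Atp5k at 9.82 (10.57 to 10.87). Far above them on the same array were Ndufc2 at 12.04 (others 11.42 to 11.58) and Uqcrc2 at 12.22 (10.94 to 11.27). This is the array with the low 5′ control signals, whose part in these values was not tested.

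On Matrigel 3, Ndufv3 read 10.80 (other Matrigel arrays 11.34 to 11.41) and Cox8c 7.64 (6.83 to 6.84). Sdhaf2 read 8.37 on Matrigel 1 (others 8.72 to 8.79). On Non-instigator 2, Uqcrb read 12.45 (other Non-instigator arrays 12.59 to 12.64) and Cox7a2l 10.86 (10.51 to 10.57).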

How the results depend on the processing

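The count of members at a limma adjusted p under 0.05 was 0 in each comparison under each of 24 alternatives. The smallest adjusted p was 0.268 for Instigator against Matrigel (Instigator 5 moved), 0.752 for Non-instigator against Matrigel (without Matrigel 1) and 0.316 for Instigator against Non-instigator (array weights). Over 26 alternatives the member median stayed within the spread between arrays: -0.038 to 0.072 for Instigator against Matrigel, -0.081 to 0.0082 for Non-instigator against Matrigel and -0.019 to 0.060 for Instigator against Non-instigator. Leaving out each array in turn gave -0.038 to 0.024, -0.081 to -0.011 and -0.019 to 0.051. Under a replicate block the medians were 0.0087, -0.022 and 0.017, and 0 members were called. Of 2796 recomputed values of the 39 named genes, 141 took the other sign. Many could not, since a difference stays the same when an array outside the groups compared is left out. By gene, some alternative turned the sign in 14 of the 39 for Instigator against Matrigel. It did so in 16 for Non-instigator against Matrigel and in 17 for Instigator against Non-instigator. Of the named genes, 0 were called under any alternative. The number of arrays and the spread on Instigator 4 limit what can be seen.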
